A study of Caenorhabditis elegans with 2 samples.

Results

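The regions described here are X-linked promoter regions from a ChIP-seq experiment on NHR-76 in Caenorhabditis elegans, in which DNA bound by a tagged factor is pulled down and sequenced. Whole L4 larvae of mixed sex, strain OP203 with genotype unc-119(ed3) III; wgIs203, carried an insertion that targets nhr-76 as an eGFP fusion. The samples were 2 biological replicates of 1 group, with no second genotype, stage or untreated group. The sources used here do not say what drives the fusion or whether each replicate was a separate culture. A region was counted as an X promoter region when its summit, the single base the list marks as the point of strongest signal, lay on chromosome X in the window of a protein-coding gene. The window reached 1000 bp upstream and 200 bp downstream of where the gene starts in the annotation, its 5′ end. Summits within 200 bp of a tRNA, snRNA, snoRNA or rRNA gene were left out. By this rule 535 of the 13052 regions in the list pooled over both replicates were X promoter regions, or 22.9% of the 2337 pooled regions on X. They belonged to 530 genes.

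NHR-76 is a nuclear hormone receptor, one of a family of DNA-binding transcription factors that is greatly expanded in nematodes, and in C. elegans it is known for a role in serotonin-driven fat loss in the intestine. A promoter is the stretch of DNA next to the start of a gene where transcription factors and RNA polymerase assemble. The X chromosome of C. elegans differs between the sexes, with a pair in hermaphrodites and a single copy in males, and in hermaphrodites a condensin-like dosage compensation complex binds along both X chromosomes and lowers their transcription. That complex is first recruited at sites that carry a sequence known as the MEX motif.

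The strongest of these regions are shown by the 100 bp around their summits, because the results below turn on which of them passed the stricter call of the authors and on what sequence they shared. A region was called when a summit of the shorter peak list that the authors deposited for the experiment lay within 200 bp of its own. The first 8 sequences are the called X promoter regions with the highest signal values in that list, with no base in an annotated UTR. Each is in ce11 coordinates on the strand of its gene, from the NCBI RefSeq copy of the WBcel235 assembly, and capitals mark matches on either strand to any of 12 short motifs spelled out further on.
nspc-17, chrX:14525869-14525968, minus strand: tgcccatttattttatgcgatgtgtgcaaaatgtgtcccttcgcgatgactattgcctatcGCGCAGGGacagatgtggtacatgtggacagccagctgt
nipi-3, chrX:15607685-15607784, plus strand: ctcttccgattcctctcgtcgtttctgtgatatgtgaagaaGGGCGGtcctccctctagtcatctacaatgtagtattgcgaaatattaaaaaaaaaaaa
puf-9, chrX:5841238-5841337, plus strand: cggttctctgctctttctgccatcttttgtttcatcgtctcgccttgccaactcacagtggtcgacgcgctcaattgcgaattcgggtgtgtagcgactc
fbxb-58, chrX:1627103-1627202, plus strand: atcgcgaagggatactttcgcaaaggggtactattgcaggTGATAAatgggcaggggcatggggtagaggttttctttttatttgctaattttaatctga
ins-39, chrX:1344957-1345056, minus strand: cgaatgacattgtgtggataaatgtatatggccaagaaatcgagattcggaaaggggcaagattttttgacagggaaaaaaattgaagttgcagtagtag
T24D3.2, chrX:12425515-12425614, plus strand: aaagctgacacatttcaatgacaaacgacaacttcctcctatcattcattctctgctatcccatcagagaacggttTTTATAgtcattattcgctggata
sym-4, chrX:14169754-14169853, minus strand: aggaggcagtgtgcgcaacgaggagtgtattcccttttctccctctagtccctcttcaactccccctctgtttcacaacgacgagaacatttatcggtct
ain-1, chrX:16612486-16612585, plus strand: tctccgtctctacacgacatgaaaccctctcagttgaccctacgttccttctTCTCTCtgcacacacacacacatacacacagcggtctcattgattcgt
The 2 strongest X promoter regions that were not called, under the same condition, read as follows.
cal-5, chrX:5078251-5078350, minus strand: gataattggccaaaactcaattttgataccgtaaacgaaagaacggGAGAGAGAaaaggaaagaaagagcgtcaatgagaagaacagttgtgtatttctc
rpl-11.2, chrX:2242931-2243030, minus strand: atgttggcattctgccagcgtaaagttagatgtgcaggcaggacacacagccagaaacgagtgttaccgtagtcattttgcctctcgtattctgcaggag
The match in nspc-17 was the MEX motif core, those in nipi-3, fbxb-58 and T24D3.2 were a GC box, a GATA element and a TATA box, and those in ain-1 and cal-5 were GAGA repeats. The windows of puf-9, ins-39, sym-4 and rpl-11.2 held no match within these 100 bp. No single motif was common to the 10 sequences.

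Of the 535 X promoter regions, 20 were called, which is 3.74% with a 95% Wilson interval of 2.43% to 5.70%. Over all 13052 pooled regions the called share was 2.48%. The intervals cover counting error only, and regions of 1 experiment are not replicates of each other, so the classes are set side by side without a test. The 20 regions lay near 18 called peaks, because nspc-17 and F18H3.4 each had 2 pooled regions beside 1 called peak. Counted by gene, 18 of the 530 genes with an X promoter region were called, or 3.40%, beside 4.53% of the 4170 genes with a promoter region on any nuclear chromosome. All 20 called regions lay upstream of the gene and outside coding genes, and 7 had exactly the interval of a called peak.

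The called X promoter with the highest signal belonged to nspc-17, a member of a nematode-specific peptide family. Its region at chrX:14525734-14526103 had a pooled signal value of 143.3 and rank 43 of the pooled list, with a signal of 92.33 and rank 41 in replicate 1 and a signal of 53.76 and rank 59 in replicate 2. Signal values are the authors' own, their scale is not stated, and here they order regions inside 1 list. The replicate lists were longer than the pooled list, with 26700 and 24791 regions, so a rank of one list is not a change against a rank of another. The second nspc-17 region, with a summit 186 bp from the same called summit, had a pooled signal of 41.41 and rank 652, and it was matched to the same replicate 1 region as the first.

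Next in pooled signal came fbxb-58, an F-box gene, at 128.4 and rank 54, with ranks 56 and 52 in replicates 1 and 2. Its region was 116 bp long and its summit lay 984 bp upstream of the gene, near the far edge of the window, whereas the other 534 X promoter regions were all 370 bp long. The region of puf-9, which encodes a Pumilio-family RNA-binding protein, had a pooled signal of 127.6 and rank 56, with signals of 71.18 and 50.57 and ranks 62 and 68 in the replicates. Its summit, 304 bp upstream, also lay inside the annotated non-coding RNAs W06B11.7 and W06B11.9, so a position in the puf-9 promoter and one in those RNAs cannot be told apart. The insulin-like peptide gene ins-39 had a pooled signal of 124.1 and rank 58, with signals of 68.89 and 57.7 and ranks 64 and 48. The region of nipi-3, which encodes a Tribbles-family pseudokinase with a role in innate immunity and development, had a pooled signal of 119.5 and rank 62, with signals of 69.62 and 48.26 and ranks 63 and 74. These 5 promoters ranked within the first 74 regions of all 3 lists.

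T24D3.2 followed with a pooled signal of 107.8 and replicate ranks of 83 and 64. The sym-4 region had a pooled signal of 98.74 and ranks of 76 in replicate 1 and 177 in replicate 2. The region of epn-1, the epsin gene of clathrin-mediated endocytosis, had a pooled signal of 97.79 and ranks of 92 and 133. From sym-4 to serp-1.1 each region stood further from the top in replicate 2 than in replicate 1. The gene ain-1 encodes a GW182-family protein of the microRNA silencing complex, and its region, 915 bp upstream, had a pooled signal of 87.55 and replicate ranks of 98 and 144. A second ain-1 region, 716 bp upstream and not called, had a pooled signal of 17.22 and rank 9195. K02A6.3 had a pooled signal of 77.92 and replicate ranks of 122 and 303, and serp-1.1 had 77.37 with ranks of 114 and 286.

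The called promoters of nhr-48 and kin-29 were the least even between the replicates among called X promoters listed in both. The nhr-48 region had a signal of 56.43 and rank 96 in replicate 1 but 15.7 and rank 1463 in replicate 2. The region of kin-29, which encodes a salt-inducible-kinase homolog that acts in sensory and metabolic signalling, had 41.77 and rank 167 in replicate 1 but 13.81 and rank 2372 in replicate 2. Both were listed in each replicate, and their pooled ranks were 162 and 304. The nhr-1 promoter went the other way, with a pooled signal of 62.71, rank 347 in replicate 1 and rank 178 in replicate 2.

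The weakest called X promoters overlapped uncalled ones in signal. ZC506.1, with a pooled signal of 66.85 and rank 196, and nhr-1, with 62.71, still lay above every uncalled X promoter region. Below the strongest uncalled region, cal-5 at 59.38, came F18H3.4 with 57.27 and rank 275 and kin-29 with 55.77 and rank 304. Then came eef-1A.2, a gene for the translation elongation factor that delivers aminoacyl-tRNA to the ribosome, with 54.68 and rank 318. The tmem-184 region, named for a transmembrane protein family, had 47.71 and rank 467, with ranks of 640 and 395 in the replicates. The second F18H3.4 region counted as called through its neighbour, 98 bp from the called summit, with its own pooled signal of 18.35, rank 7481, and no match in replicate 1. In the called list the 18 peaks had signals from 135.3 at nspc-17 down to 58.29 at tmem-184, and the lowest signal of any called peak in the genome was 58.11.

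**Figure D1:**
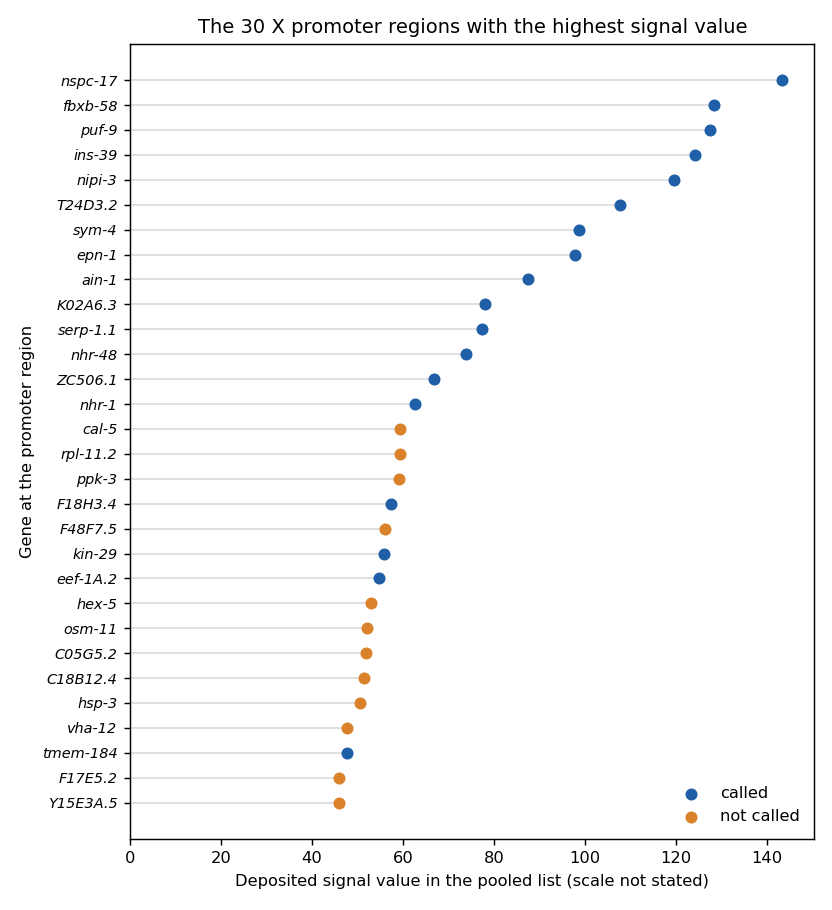
The 30 X promoter regions with the highest signal values in the pooled list, each point 1 region labelled with its gene, along the authors' signal value on a scale that was not given. Called regions in blue run from nspc-17 at 143.3 to tmem-184 at 47.71, and uncalled regions in orange begin with cal-5 at 59.38 among them.

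The 10 strongest uncalled regions shared the highest pooled −log10 q-value, 2.98, with 18 of the 20 called ones, so that value did not separate them. Across the pooled list 475 regions had it. First was the region of cal-5, a calmodulin-like gene, with a pooled signal of 59.38, rank 252, and ranks of 662 and 166 in the replicates. Its summit lay in an intron of the neighbouring gene ets-5. The region of rpl-11.2, a gene for a protein of the large ribosomal subunit, had 59.23 with ranks of 354 and 234, and that of ppk-3, a phosphatidylinositol phosphate kinase gene of the endolysosomal system, had 59.04 with ranks of 585 and 247. F48F7.5 had 56.09 with ranks of 431 and 191, and hex-5, a hexosaminidase gene, had 52.94 with ranks of 412 and 530. All 5 were thus ranked within the first 662 regions of both replicates.

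For osm-11, which encodes a secreted co-ligand of Notch receptors, the strongest region lay 109 bp downstream of the 5′ end in an intron of the gene, with a pooled signal of 52.15 and ranks of 300 and 773. The gene had 2 further regions, 435 bp and 658 bp upstream, at pooled ranks 1948 and 13027. The C05G5.2 region had 51.77 and ranks of 974 and 240. That of C18B12.4 had 51.41 and ranks of 267 and 1655, with its summit inside the non-coding RNA C18B12.9. The region of hsp-3, which encodes the endoplasmic reticulum chaperone BiP, had 50.5 with ranks of 388 and 512, and that of vha-12, a subunit gene of the vacuolar proton pump, had 47.72 with ranks of 902 and 412. Of these 10, 9 stood among the 1000 strongest of both replicates, with C18B12.4 outside in replicate 2. In all, 36 X promoter regions were among the 1000 strongest of both replicates, 17 of them called and 19 not.

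The other 10 uncalled regions of that set belonged to F53H4.4 with csb-1, cdo-1, ftt-2 (2 regions), T22B7.7, pek-1, smf-1, cebp-1, W07E11.1 and C11E4.7, with pooled ranks from 518 to 1391, and they are named because of those values. The stronger region of ftt-2, which encodes a 14-3-3 adaptor protein, had a pooled signal of 43.79 with ranks of 631 and 225. Its summit lay inside the non-coding RNA F52D10.7. The second ftt-2 region, at pooled rank 1391, was matched to the same replicate regions. That of pek-1, the gene of the PERK kinase of the endoplasmic reticulum stress response, had 43.05 with ranks of 628 and 571. The region of smf-1, a divalent metal transporter gene, had 42.77 with ranks of 336 and 965, and that of cebp-1, a gene for a bZIP transcription factor, lay 854 bp upstream with 41.65 and ranks of 731 and 912. The cdo-1 region, at a cysteine dioxygenase gene, lay 951 bp upstream with 44.65 and ranks of 673 and 660. The summits of the cdo-1 and C11E4.7 regions lay in exons of other coding genes, lgl-1 and C11E4.6.

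Recurrence between the replicates was counted from summits within 200 bp. Of the 535 X promoter regions, 290 were listed in both replicates, 54.2% with an interval of 49.97% to 58.38%. A further 156 were listed in replicate 1 only, 80 in replicate 2 only and 9 in neither. Among the called regions 19 of 20 were listed in both. The same share was 53.7% over 3329 autosomal promoter regions and 46.0% over 1697 X regions outside promoters. The pooled list was itself made from both replicates, so these shares describe the lists and are not independent evidence of binding.

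Over the 290 regions listed in both, the replicate signals had a Spearman coefficient of 0.43 and a Pearson coefficient of 0.60 on the log2 scale. Without the called regions the Spearman coefficient was 0.32 over 271. The points share their genomic position, base composition and the pooled list that chose them. Over 1787 autosomal promoter regions the coefficient was 0.40. Of the X promoter regions, 71 were matched to one of the 1000 strongest regions of replicate 1 and 68 to one of replicate 2. Neighbouring regions can share a match, as those of nspc-17 did in replicate 1 and those of ftt-2 in both.

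**Figure D2:**
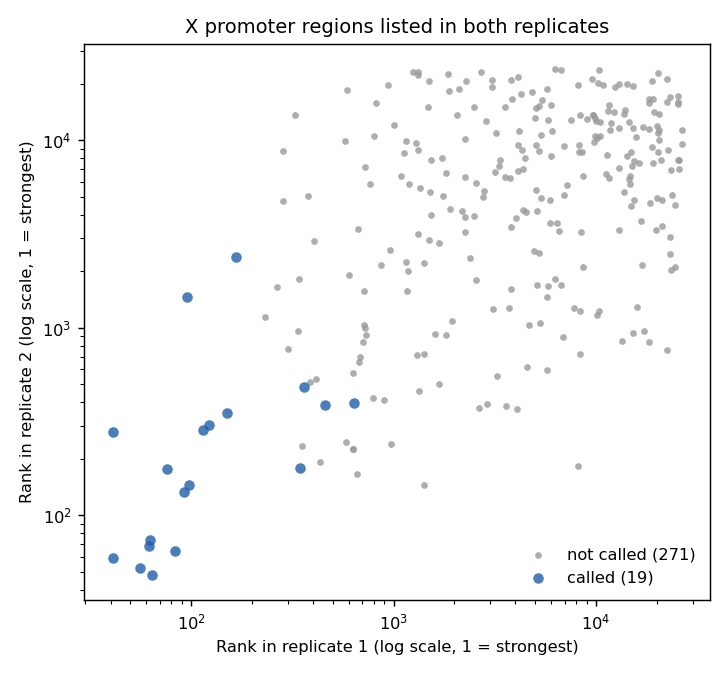
Rank in replicate 1 against rank in replicate 2, both on log scales with 1 as the strongest, for the 290 X promoter regions listed in both. The 19 called regions in blue sit at the lower left, apart from nhr-48 and kin-29 with ranks of 1463 and 2372 in replicate 2, and the 271 uncalled regions in grey fill the rest.

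X promoter regions had a median pooled rank of 4886, the 37.4th percentile of the pooled list counted from the strongest. That median was 5499 for autosomal promoter regions and 6900 for X regions outside promoters. Among the 1000 strongest pooled regions were 67 X promoter regions, 12.5% of them, beside 11.4% of autosomal promoter regions and 6.54% of X regions outside promoters. The called share was 3.97% (3.35% to 4.68%) for autosomal promoter regions and 2.53% (1.89% to 3.40%) for X regions outside promoters. The interval of X promoter regions overlapped both, and a difference in called share was not tested.

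A summit can lie in the windows of genes on both strands, between genes that point away from each other or overlap. Of X promoter regions, 32 (5.98%) lay in the windows of genes on both strands, beside 16.25% of autosomal promoter regions. The windows themselves differed likewise, with 3.74% of promoter bases on X and 10.7% on the autosomes in windows of both strands. None of the 32 was called, which allows a share of up to 9.38%, whereas 42 of 541 such autosomal regions were called, or 7.76% (5.80% to 10.3%). Among regions with genes on 1 strand, 20 of 503 on X were called, or 3.98% (2.59% to 6.06%), and 90 of 2788 on the autosomes, or 3.23% (2.63% to 3.95%). Among single-strand promoters the X value was thus above the autosomal one, and over all promoter regions below it, with overlapping intervals both times. With replicate 1 left out, so that the strongest regions of replicate 2 stood in for the called peaks, the order over all promoter regions turned, with 4.49% on X and 3.49% on the autosomes, again with overlapping intervals.

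**Figure D3:**
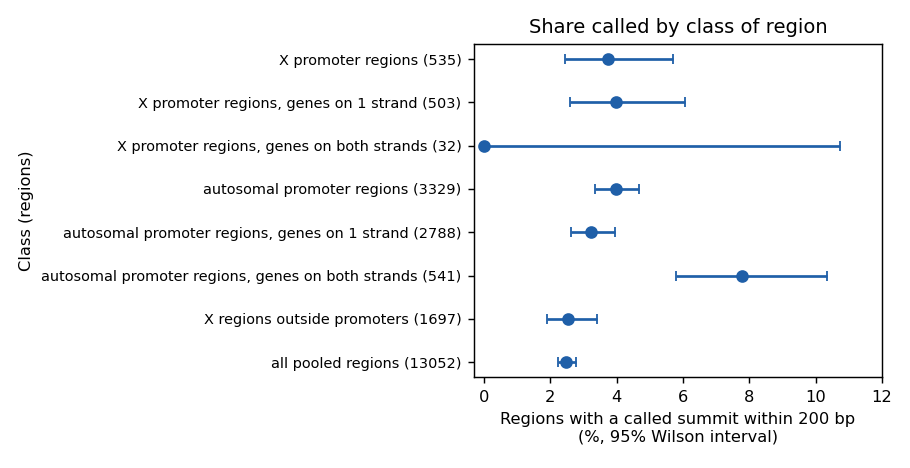
Share of regions with a called summit within 200 bp, as points with 95% Wilson intervals, for 8 classes of pooled regions with the number of regions in brackets. X promoter regions at 3.74% overlap autosomal promoter regions at 3.97% and X regions outside promoters at 2.53%.

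The summits of X promoter regions lay a median of 340 bp upstream of the nearest gene's 5′ end, with quartiles at 655.5 bp and 133.5 bp upstream. The autosomal median was 255 bp upstream, and 300 bp upstream where the genes were on 1 strand only. Of the X summits, 492 were upstream and 43 downstream, and 348 lay within 500 bp. The bin from 200 bp to 100 bp upstream held the most, 71 regions or 13.3%. Called summits had a median of 322.5 bp upstream with 14 of 20 within 500 bp, and the nearest to a gene was that of T24D3.2, 165 bp upstream. No called X summit lay closer to a 5′ end than that or downstream of one. The called share over all X promoter regions was 3.74%. At that share 43 downstream summits are too few to show whether calling differed with position, which was not tested.

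**Figure D4:**
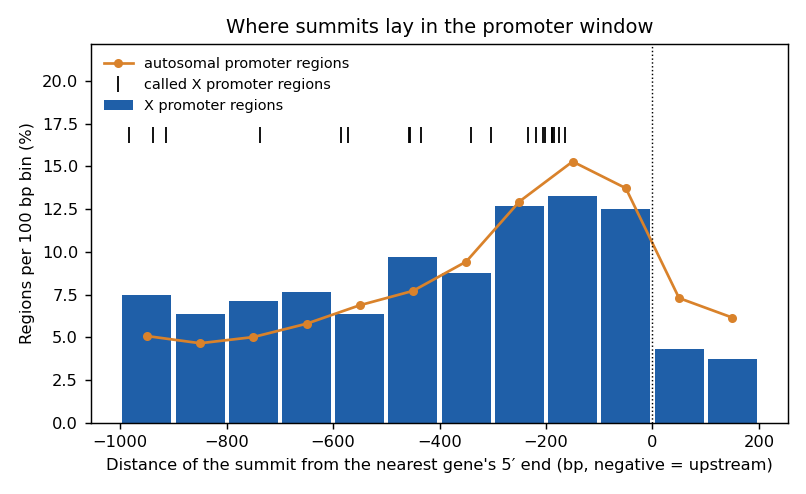
Share of X promoter regions (bars) and autosomal promoter regions (line) per 100 bp bin of distance from the nearest 5′ end, negative upstream, with ticks for the 20 called X regions. The X bars reach 13.3% from 200 bp to 100 bp upstream, and the autosomal line reaches 15.3% in the same bin.

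In relation to the annotation, 445 X promoter summits were outside coding genes, 58 in an exon and 32 in an intron. Lower-case bases of the reference, which mark repeats and simple sequence, held 35.5% of X promoter summits, beside 40.7% of autosomal promoter summits. Of the called summits 1 of 20 was in such sequence, that of the second F18H3.4 region, against 189 of 515 uncalled ones. The median GC content of the 200 bp around the summit was 42.75% for called and 34.5% for uncalled X promoter regions. GC content moved with rank, from a median of 43.5% in the 21 regions among the first 319 of the pooled list to 32.5% in the 213 regions from rank 6527 on. Between the same tiers the share listed in both replicates went from 100% to 29.1%, and the share of masked summits from 0% to 45.5%. The part of base composition in the signal was not tested.

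Along the chromosome the regions were spread over its whole length of 17718942 bp. Cut into 10 bins of equal length, each held between 46 and 63 X promoter regions, or between 16.2 and 25.1 per 100 genes. Of the 20 called regions 7 lay in the ninth bin, those of nspc-17 (2 regions beside 1 called peak), tmem-184, epn-1, nipi-3, nhr-48 and serp-1.1. None lay in bins 3 and 7. The ninth bin also held the most X promoter regions, 63, and bins 3 and 7 held 46 and 57. With so few called regions per bin, an uneven spread was not tested. Of the 530 genes, 485 had 1 region, 43 had 2, and osm-11 and hsp-43 had 3 each. Of all 2731 coding genes of X, 19.4% had a promoter region, and of the 17242 autosomal ones 21.1%.

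Members of 16 gene lists were matched by name, and their counts are read beside the 19.4% of X genes with a region and the 3.40% of those that were called. Of 27 nuclear hormone receptor genes on X, 7 had a promoter region and 2, nhr-48 and nhr-1, were called. The next, nhr-17, was at pooled rank 693, with its summit inside the non-coding RNA C02B4.11. The others were nhr-3, nhr-28, nhr-35 and nhr-120. Of 6 genes of translation, the proteasome and chaperones, 5 had one, and eef-1A.2 was called. In this list hsp-3 was at rank 397. The strongest region of hsp-43, a small heat shock protein gene, was at rank 1019, with rank 300 in replicate 2 and no match in replicate 1. Its summit lay inside the non-coding RNAs C14F11.11 and C14F11.20. The hsp-43 region 531 bp upstream, at pooled rank 3525, had rank 567 in replicate 1 and no match in replicate 2. The region 833 bp upstream, at pooled rank 1873, had ranks of 4541 and 619. A missing match means no replicate summit within 200 bp, and not that the promoter lacked signal in that replicate. Of 2 ribosomal protein genes, rpl-11.2 had a region. Of 28 homeobox genes, lim-6 had a region, at rank 9847. Of 6 X signal elements and dosage compensation genes, sdc-2, whose product brings the dosage compensation complex to X, had one, at rank 1263 with replicate ranks of 2559 and 1790.

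Beside the 19.4% of all X coding genes with a promoter region, the lists of neuronal and signalling genes had from none to 16.67% of their members with one. Other lists were below 19.4% too, such as cuticle collagens at 16.67%, cytochrome P450, UGT and GST genes at 7.14% and homeobox genes at 3.57%. These shares rest on few genes and were not tested. Of 37 neuropeptide and insulin genes 4 had one, ins-39 called and the others at rank 8345 (nlp-76), 10903 (flp-11) and 11718 (nlp-23). The nlp-76 summit lay in an intron of nhr-17. Of 37 neurotransmitter and peptide receptor genes, npr-8 had a region, at rank 2619. Of 30 ligand-gated channel genes 5 had one, led by lgc-13 at rank 977, acr-12 at 1134 and glr-6 at 2608. The lgc-13 and glr-6 regions were each shared with a nearer gene on the other strand. The lgc-13 summit lay 27 bp upstream of W03G11.2, and the glr-6 summit lay 210 bp upstream of asg-2. Of 19 potassium channel genes 2 had one, twk-21 at rank 6888 and slo-2 at 8576. None of 34 chemoreceptor genes had one, which allows a share of up to 8.82%, and none of 6 innexin genes, which allows up to 50%. The median best rank was 9624 over the 4 neuropeptide and insulin genes and 4704.5 over all 530 genes.

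The lists for the cuticle, yolk, fat, detoxification and the serotonin pathway held few genes with a region and no called one, and at a called share of 3.40% over all 530 genes so few genes cannot show whether that share differs. Of 30 cuticle collagen genes 5 had a region, with col-181 at rank 544, col-184 at 1153 and col-19 at 1258. The col-19 summit lay in an intron of ZK1193.2. Of 5 vitellogenin genes, which encode yolk proteins, vit-2 had a region, at rank 945 with replicate ranks of 864 and 2160. Of 14 genes of fat storage and fatty acid enzymes 4 had one, with the acyltransferase genes acl-1 and acl-4 at ranks 1908 and 3969 and the lipid-binding protein gene lbp-3 at 2414. The acl-1 region was at rank 762 in replicate 2 but 22318 in replicate 1. Of 14 cytochrome P450, UGT and GST genes, cyp-43A1 had one at rank 687, with rank 183 in replicate 2 and 8144 in replicate 1. Both regions thus stood high in replicate 2 only. Of 3 genes of the serotonin and FLP-7 pathway of fat loss on X, tbh-1, which encodes the enzyme that makes octopamine, had one at rank 10551. It was listed in replicate 2 only, and its summit lay in an intron of H13N06.7.

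The sequence within 200 bp windows centred on the summits was searched on both strands for 12 motifs. Elements known to be bound by nuclear receptors came first. The hexamer AGGTCA was in 38 of 535 X promoter windows (7.10%), none of them called, with an upper limit of 15% from 0 of 20. It was in 4.24% of autosomal promoter windows and in 5.46% of the 200 bp upstream of all X coding genes. Its extended form AAGGTCA, which contains it, was in 1.87% of X promoter windows and 2.27% of all X upstream sequences. The variant AAGTCA was in 11.2% and 9.81%, and the DAF-12-type element AGTGCA in 8.60% and 7.36%. For the variant and the DAF-12-type element, 2 of the 20 called windows held a match. The DAF-12-type matches were in the first F18H3.4 region and in a second region of nspc-17 or F18H3.4. Such a second region shares its called peak with the first region of its gene. Of the 10 strongest uncalled regions, ppk-3 held AGGTCA.

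The repeat GAGAGA was in 10 of the 20 called X promoter windows, 50% with an interval of 29.9% to 70.1%. It was in 107 of 515 uncalled ones, or 20.8%, in 17.8% of autosomal promoter windows and in 16.9% of X upstream sequences. The called regions that held it were those of puf-9, nipi-3, T24D3.2, ain-1, nhr-48, nhr-1, kin-29 and eef-1A.2, with the second regions of nspc-17 and F18H3.4. The first nspc-17 and F18H3.4 regions did not hold it. Among the 30 strongest X promoter regions, the uncalled ones of cal-5, rpl-11.2, ppk-3, F48F7.5, C05G5.2, hsp-3, F17E5.2 and Y15E3A.5 held it too. Those of hex-5, osm-11, C18B12.4 and vha-12 did not, so in this set the motif was not more frequent in called regions. Most of the 515 uncalled regions were weaker than the called ones, so 50% and 20.8% compare regions of unlike signal. The motif was among 12 searched, and called windows were also richer in GC, as given above, so the share was not set against a matched background.

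The other 6 elements lay on either side of the shares in X upstream sequences. The GATA element TGATAA was in 25.05% of X promoter windows, beside 21.4% of X upstream sequences, and the TATA box TATAAA in 24.9%, beside 29.2%. The heat shock element TTCNNGAA was in 11.4% and 9.52%, the E-box CACGTG in 5.79% and 3.33%, the CRE core TGACGT in 8.60% and 7.36%, and the GC box CCGCCC in 3.93% and 6.66%. For the E-box the intervals, 4.11% to 8.11% and 2.72% to 4.07%, did not overlap, and the autosomal promoter share was 4.60%. For the GC box the autosomal share was 5.44%. In called windows each of the 6 elements was found in 1 to 3 of 20, with the second regions of nspc-17 and F18H3.4 counted among the 20.

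**Figure D5:**
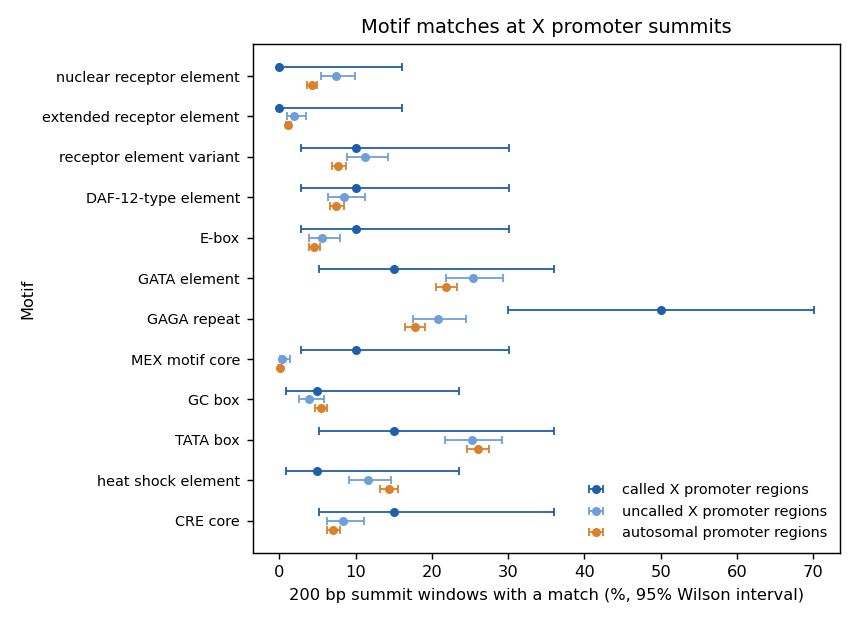
Share of 200 bp summit windows with at least 1 match, as points with 95% Wilson intervals, for 12 motifs in 20 called X promoter regions, 515 uncalled ones and 3329 autosomal promoter regions. The GAGA repeat is at 50% of called and 20.8% of uncalled X windows, and the MEX motif core is at 10% and 0.388%. Most uncalled regions have weaker signal than the called ones.

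The core of the MEX motif, GCGCAGGG, was in 4 X promoter windows, those of nspc-17, ins-39, R04E5.9 and alh-13. That was 0.748% of X promoter windows, beside 0.0732% of X upstream sequences and 1 of 3329 autosomal promoter windows. Of the 4 regions, nspc-17 and ins-39 were called, at pooled ranks 43 and 58, with the core starting at chrX:14525900 and chrX:1345056. R04E5.9 was at rank 1185, and alh-13 was at rank 12183 and in neither replicate list. The nspc-17 match is in capitals in its sequence above. The 30 bp around the other matches outside UTRs, with the core in capitals, are given to compare their flanks, on the strand that reads the core, in ce11. They were chosen after the values were seen.
ins-39, chrX:1345045-1345074, plus strand: caatgtcattcGCGCAGGGcagctgagccc
alh-13, chrX:12781448-12781477, minus strand: aaaacgaatttGCGCAGGGataaatttcat
A match is a description of the letters, and binding of the dosage compensation complex was not measured here.

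The targeted gene, nhr-76, is on chromosome IV at 627537 to 633963. Called peaks lay 1190 bp upstream and 1845 bp downstream of its 5′ end, at called ranks 25 and 119. Because the strain carries an insertion that targets nhr-76 and no input values were used, these peaks are no test of binding there. Neither peak is on X. The depth of the libraries is unknown, since the 4 deposited lists hold no read counts, and no input values were used here.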

How the data were processed

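Chromatin of 2 biological replicates of 1 group was profiled, with a library size selection of 150 to 350 bp per the labels. The 4 lists used were 1 per replicate, 1 pooled over both and 1 shorter called list, in ce11. The signal of each region, used as a score, and its −log10 q-value are the authors' own deposited values. The summit offset, another deposited column, gave each summit. The sources used here name no aligner, caller or threshold. The deposited lists hold no counts, so the depth is unknown, and the control that the labels name was not used here.

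Regions were joined to the WBcel235 annotation (Ensembl release 115) and to RefSeq sequence by chromosome and position. Python 3.11.15, numpy 2.4.6, pandas 2.3.3, scipy 1.17.1 and matplotlib 3.10.9 were used. The functions for promoter windows, small RNA genes, summit matching, distances and motifs were tested on made-up coordinates and sequences, and the other steps were not. Shares have 95% Wilson intervals. A limit for a count of 0 is 3 divided by the number of regions or genes. With 1 group no comparison between groups and no test was made. Columns of per-sample values left unused numbered 0.

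Named were every called region, the 10 strongest uncalled ones, the 3 strongest genes of each of 16 lists and nhr-76. Genes outside this rule, such as the other uncalled ones among the 1000 strongest of both replicates, R04E5.9, alh-13, nhr-3, nhr-28, nhr-35, nhr-120 and nlp-23, were named after their values were seen. The regions, lists and motifs were chosen with earlier results of these data known. Alternatives covered the promoter window, small RNA genes, list depth, matching distances, each replicate left out, every pair of summit and 5′ end, the motif window and the masked bases counted.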

Additional observations from a re-analysis of the deposited data

How the results depend on the processing

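The called share of X promoter regions, 3.74%, stayed within its interval under every alternative except the stronger part of the pooled list, where it was 5.90%, with 6.91% for autosomal promoter regions and 5.32% for X regions outside promoters. A 2000 bp window moved the autosomal share to 3.30%. Leaving out a replicate gave 3.93% to 4.49% for X promoter regions, 3.49% to 3.97% for autosomal ones and 2.53% to 2.71% for X regions outside promoters, with X above the autosomes without replicate 1 and below them without replicate 2. Counting only the closest region of each called peak, an alternative chosen after seeing the data, gave 3.36%, 3.85% and 2.48%. The number of X promoter regions was 348, 813 and 322 with a 500 bp window, a 2000 bp window and the stronger part of the list, the median percentile 31.97, 45.18 and 20.17, and the median distance −194.5 bp, −663 bp and −285 bp, by construction of the windows and the list. The share listed in both replicates was 25.98% within 50 bp, 65.61% within 500 bp and 33.83% with replicate lists as short as the pooled one. In 100 bp windows the share of X promoter regions with a match fell for 11 motifs, as a shorter window does by construction, and stayed within its interval for the MEX motif core, at 0.561%. Counting any masked base within 50 bp of the summit raised the masked share to 80.4%. No paired analysis was possible because there is 1 group. The unknown depth and the unstated scale of the signal limit all ranks.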

Other observations

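Beyond the promoter windows, the MEX motif core was in 16 of 1697 X regions, 10 of them among the 43 called ones and 12 among the 1000 strongest of the pooled list. Over all of X, 12 of 63 called regions held it, beside 0 of 234 called autosomal regions, which allows a share of up to 1.28%. Of 10685 autosomal regions 4 held it. The core occurred 4.57 times per Mb on X and 2.82 times per Mb on the autosomes. This count was made after the promoter values were seen.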
